A study of Mus musculus with 2 samples.

Results

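The cells described here carried the transcript of Snai1 and not that of Ly6a. Each had at least 2 Snai1 UMIs and 0 Ly6a UMIs, where a UMI (unique molecular identifier) marks a single captured RNA molecule. They were taken from 4086 kept barcodes, those with 10000 to 30000 UMIs, 500 genes or more and no more than 10% mitochondrial UMIs. The rule found 610 such cells, 275 in the IgG library and 335 in the aPD-1 library, and they are called Snai1-high cells below. They were compared, within each library, with kept cells that had 0 Snai1 and 0 Ly6a UMIs, 366 in IgG and 897 in aPD-1, called Snai1-0 cells. The cells were thus chosen by their own Snai1 and Ly6a counts, so levels of these 2 genes are descriptions only and both were left out of every count across genes.

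The series measured single-cell RNA in MC38, a mouse colon carcinoma line, grown as tumours on the C57BL/6 albino background. Tumours were broken up, and the 40 to 100 µm fraction of spheroids was embedded in collagen in a microfluidic chip. Such spheroids can still hold immune cells of the host. Cultures received 10 µg/mL of either IgG (clone 2A3), the control antibody, or aPD-1 (clone RMP1-14), which binds the T cell receptor PD-1, and were taken apart on day 6. Sorted tumour cells went into droplet capture and sequencing of 3′ ends, with 1 library per treatment, and the sources used here give neither the sort markers nor the number of animals behind each library. With 1 library per treatment no test between treatments was possible, and cells of a library are not replicates. Every interval below is a 95% interval that covers counting error only.

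Snai1 encodes Snail, a zinc finger transcription factor that represses E-cadherin and other epithelial genes and is best known for epithelial to mesenchymal transition (EMT), the change by which epithelial tumour cells loosen from each other and take on a motile, matrix-producing character. Snail is a short-lived protein whose gene is switched on by TGF-beta, by growth factor signalling and by stress. Ly6a encodes Sca-1, a surface protein of stem and progenitor cells that interferon induces. The group behind the series has described cells positive for both after PD-1 blockade, which is why cells with only the first were looked at on their own. Snai1 lies on chromosome 2 at 167538195 to 167542814 and Ly6a on chromosome 15 at 74994877 to 74998031 (GRCm38), both protein-coding.

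The promoters of Snai1 and of 3 genes that differed in these cells are shown, each from 250 bases before to 50 bases after the RefSeq start, on the plus strand of GRCm38.p6. In Snai1 and Col3a1, capitals mark CAGGTG or, on the other strand, CACCTG, the E-box letters that Snail is known to bind. In the metallothionein genes Mt1 and Mt2, capitals mark the core of the metal response element, TGCACNC or TGCGCNC on either strand, so that GNGTGCA and GNGCGCA are the same core read from the other strand. Col3a1 is shown as the gene highest in Snai1-high cells among those with a promoter in the RefSeq table, and Mt1 and Mt2 as neighbours that were lower together.
Snai1, chr2:167537945-167538244: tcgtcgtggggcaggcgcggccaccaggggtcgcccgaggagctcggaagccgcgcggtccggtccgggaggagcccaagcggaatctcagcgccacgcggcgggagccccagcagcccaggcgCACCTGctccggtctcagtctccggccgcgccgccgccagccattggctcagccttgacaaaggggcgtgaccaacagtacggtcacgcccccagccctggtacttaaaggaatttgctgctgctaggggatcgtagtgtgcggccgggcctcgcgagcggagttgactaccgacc
Col3a1, chr1:45311288-45311587: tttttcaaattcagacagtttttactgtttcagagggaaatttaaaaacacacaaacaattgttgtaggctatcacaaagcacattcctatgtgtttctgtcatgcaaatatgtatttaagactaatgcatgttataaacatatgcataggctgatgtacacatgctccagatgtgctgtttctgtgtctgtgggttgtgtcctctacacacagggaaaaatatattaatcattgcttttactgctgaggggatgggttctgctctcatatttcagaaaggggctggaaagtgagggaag
Mt1, chr8:94178839-94179138: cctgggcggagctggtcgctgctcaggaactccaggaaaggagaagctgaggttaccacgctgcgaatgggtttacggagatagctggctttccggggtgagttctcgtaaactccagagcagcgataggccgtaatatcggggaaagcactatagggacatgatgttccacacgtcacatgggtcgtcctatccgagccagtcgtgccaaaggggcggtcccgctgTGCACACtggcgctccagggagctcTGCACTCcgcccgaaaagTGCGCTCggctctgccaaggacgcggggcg
Mt2, chr8:94172368-94172667: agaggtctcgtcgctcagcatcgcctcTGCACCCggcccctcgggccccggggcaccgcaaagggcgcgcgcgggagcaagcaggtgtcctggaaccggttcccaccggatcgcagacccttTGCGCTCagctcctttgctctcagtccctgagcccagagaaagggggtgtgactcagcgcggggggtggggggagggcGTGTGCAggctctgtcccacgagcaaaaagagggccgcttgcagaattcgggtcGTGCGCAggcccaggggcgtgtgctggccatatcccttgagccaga
Snai1 held 1 E-box, read as CACCTG, and Col3a1 held 0 in this window. The E-box was present in 20.2% of 32851 mouse promoters of 300 bases. It was present in 3 of the 8 promoters matched among the 12 genes highest in Snai1-high cells and in 1 of the 8 matched among the 12 lowest. Mt1 held 3 metal response cores and Mt2 held 4. This core was present in 25.7% of all promoters, in 5 of 8 matched among the highest genes and in 6 of 8 among the lowest. Overlapping matches were each counted, the capitals in a promoter mark only the motif named for it, and a match describes letters only.

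Both libraries listed 28692 genes, with 1455 kept IgG cells (median 19510 UMIs) and 2631 kept aPD-1 cells (median 16930 UMIs), and 5 barcode sequences occurred among kept cells of both. The median depth of Snai1-high cells was 19861 (IgG) and 16987 (aPD-1) UMIs, and that of Snai1-0 cells 17709 and 16669, so the chosen cells were the deeper ones, more so in IgG. The median mitochondrial share was 3.28% and 3.77% in Snai1-high cells against 3.24% and 3.61% in Snai1-0 cells. Doublets were not removed.

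Within the Snai1-high cells, most carried few Snai1 molecules. In IgG 42.9% had 2 UMIs, 24% had 5 or more and the highest cell had 15. In aPD-1 54.6% had 2 UMIs, 10.7% had 5 or more and the highest cell had 10. Summed over cells, Snai1 was at 183 CPM (UMIs of the gene scaled to the same total of 1000000) in IgG Snai1-high cells and 159 CPM in the aPD-1 ones. Just outside the threshold lay 220 IgG and 453 aPD-1 cells with 1 Snai1 and 0 Ly6a UMIs. Free RNA can add a Snai1 UMI to a droplet. In the 515843 aPD-1 barcodes of 1 to 100 UMIs, Snai1 was at 39.1 CPM, or 166 UMIs, and the IgG matrix listed no such barcodes. No kept cell type known to lack Snai1 was large enough to give a background share.

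Snai1-high cells made up 18.9% of kept IgG cells (275 of 1455, Clopper-Pearson interval 16.9 to 21%) and 12.7% of kept aPD-1 cells (335 of 2631, interval 11.5 to 14.1%). The share was lower in the aPD-1 library, and with 1 library per treatment this difference was not tested. With every cell thinned to 10000 UMIs and the rule applied again, the shares were 13.5% (interval 11.8 to 15.3%) and 8.13% (interval 7.12 to 9.24%). Within cells of 10000 to 20000 UMIs they were 18.5% and 13.0%, and within those of 20000 to 30000 UMIs 19.3% and 12.2%. The IgG share was the higher in each of these settings.

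**Figure D1:**
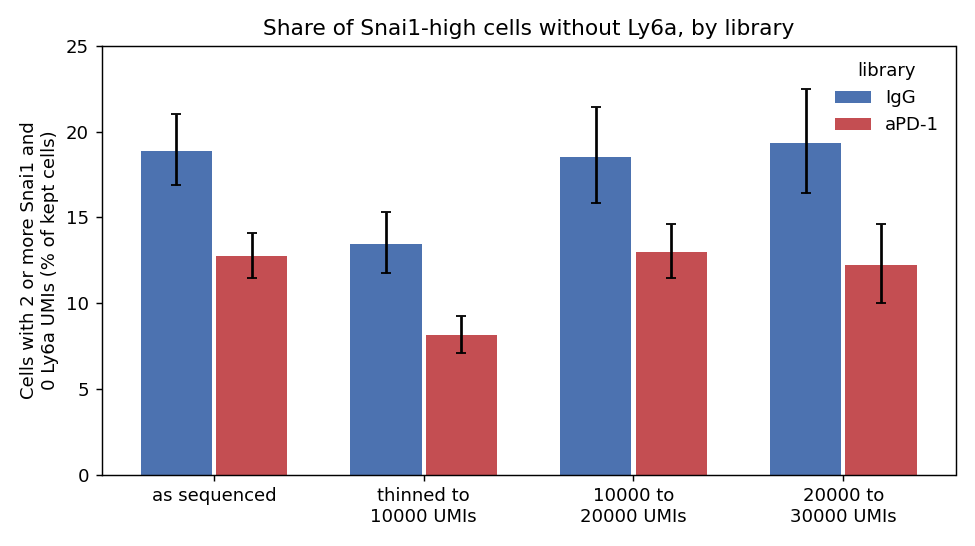
Share of kept cells with 2 or more Snai1 and 0 Ly6a UMIs (y axis, percent) in the IgG (blue) and aPD-1 (red) libraries, as sequenced, after thinning each cell to 10000 UMIs, and within 2 ranges of UMIs per cell; bars are shares and lines 95% Clopper-Pearson intervals (counting error only). The IgG bar stands at 18.9% and the aPD-1 bar at 12.7% as sequenced, and IgG is the higher in all 4 pairs.

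The counts of both genes used by the rule are given together as a description only. Ly6a was at 0 UMIs in 51.0% of the IgG cells with at least 2 Snai1 UMIs (interval 46.7 to 55.3%), in 60.3% of those with 1, and in 66.4% of those with none (interval 62.3 to 70.4%). In aPD-1 the same shares were 59.3% (interval 55.1 to 63.4%), 62.5% and 66.9% (interval 64.3 to 69.4%). Thinned to 10000 UMIs, with cells classed by their full Snai1 count, they were 65.7% against 74.6% at 2 or more and 0 Snai1 UMIs in IgG, and 68.1% (interval 64.1 to 72%) against 74.2% (interval 71.8 to 76.5%) in aPD-1. In these 2 libraries, with and without thinning, the share without Ly6a was lower at 2 or more Snai1 UMIs than at 0.

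The label of tumour cells was checked against defining markers. Of 20 epithelial genes, 13 were at 0 UMIs in the IgG Snai1-high cells and 16 in the aPD-1 ones. Epcam, Krt18, Krt20, Cdx2 and Cldn7 were at 0 in both, Krt8 was at 0 in both, and Cdh1, which encodes E-cadherin, had 1 UMI in IgG and 0 in aPD-1. In Snai1-0 cells Cdh1 had 2 and 0 UMIs, so the epithelial genes were near absent from both classes and the epithelial origin could not be read from them. Only Jup, the desmosome protein plakoglobin, at 15.0 and 7.0 CPM, and Tjp1, a tight junction protein, at 19.6 and 23.3 CPM in Snai1-high cells, stood out from the rest of that list. In Snai1-0 cells Jup was at 22.1 and 6.72 CPM and Tjp1 at 21.1 and 21.9 CPM, so neither marked the Snai1-high class. Markers of other cell types were low, with summed levels of 0.17 to 15.0 CPM per library in Snai1-high cells for 7 lists. These were macrophage, T or NK cell, B cell, dendritic cell, neutrophil, endothelial and pericyte markers. Of the 10 T or NK cell genes, 8 were at 0 in IgG and 7 in aPD-1 Snai1-high cells, Cd3e among them. The others held 4 UMIs in IgG and 13 UMIs in aPD-1, of which the T cell receptor gene Trac held 8. The summed level of that list in aPD-1 was 2.17 CPM in Snai1-high and 1.77 CPM in Snai1-0 cells, and in IgG 0.74 and 1.05 CPM. The 11 macrophage or monocyte genes held 71 and 57 UMIs, 13.1 and 9.49 CPM, against 18.4 and 13.4 CPM in Snai1-0 cells. In all, 8 IgG and 9 aPD-1 Snai1-high cells held 3 or more UMIs of macrophage or endothelial markers.

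Fibroblast markers were the exception. Summed over 12 genes they were at 1729 CPM in Snai1-high and 1113 CPM in Snai1-0 cells of IgG, and at 1114 and 696 CPM in aPD-1. Of the 12, 8 passed the filter on low values described below, and these 8 were above a ratio of 1 in both libraries, as were 45.8% of all genes tested, with a median log2 ratio of 0.76 and 0.75. The fibroblast markers Thy1 (0 and 1 UMI) and Lum (2 and 0 UMIs) were at or near 0 in Snai1-high cells of IgG and aPD-1. Col1a2 was low there (27 and 11 UMIs). It was at 4.99 CPM against 1.05 CPM in Snai1-0 cells of IgG, and at 1.83 against 1.77 CPM in aPD-1. Col1a1, Col3a1, Col6a3 and Dcn were abundant. Of the 8, 5 were higher by the size rule given below and 0 were lower, beside 0.373% and 0.269% of all genes. These were Col1a1, Col3a1, Pdgfra, Pdgfrb and Gsn. The list therefore overlaps the 3 genes that lead the comparison below, Col1a1, Col3a1 and Pdgfrb. When the cell cluster with the most fibroblast markers among its top genes was left out, the list median was 0.63 and 0.69. This setting was added once the data had been seen. Another cluster, led by Rac2 and Spib, held 2 such markers in a longer list of top genes, against 4 in the one left out, and was kept. With clusters standardised, as described below, the list median was 0.60 and 0.45. The part of fibroblasts in the results below was not tested beyond this.

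Across genes, Snai1-high cells were set against Snai1-0 cells by a rule of size. A gene passed when the mean of both sums was at least 10 CPM in each library, the ratio was at least 1.5-fold, its counting interval excluded 1, and the direction was the same in both libraries. Of 6701 genes past the filter, 25 were higher (0.373%) and 18 were lower (0.269%) in Snai1-high cells of both libraries. Within a single library 102 genes were higher in IgG (1.52%) and 102 in aPD-1 (1.52%), and 58 (0.866%) and 40 (0.597%) were lower. The median ratio of all genes was 1.04 in each library, and the 45.8% of genes above 1 in both libraries stood against 22.7% below 1 in both. The share of UMIs from ribosomal protein genes was 33.6% in Snai1-high and 35.3% in Snai1-0 cells of the IgG library, and 37.8% and 40.0% for aPD-1. With the median of all genes set to 0 in the log2 ratios, 17 genes were higher and 27 lower, and without ribosomal protein and mitochondrial genes 30 and 37.

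With the class sums standardised to the same mix of clusters, 6 of the 25 higher and 8 of the 18 lower genes still passed, though all 43 kept their direction in both libraries. Standardised over cell cycle phase, 22 and 14 still passed, and over depth in bins of 2000 UMIs 23 and 16. Without the cluster with the most fibroblast markers 21 and 12 passed, and without the cells holding macrophage or endothelial UMIs 23 and 14.

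The higher genes were led by Col1a1, Col3a1 and Pdgfrb. Col1a1, the alpha 1 chain of type I collagen (chromosome 11, 94936224 to 94953042), was at 232 CPM in Snai1-high and 91.5 CPM in Snai1-0 cells of IgG, and at 125 and 55.9 CPM in aPD-1. Its ratios were 2.53 (interval 2.3 to 2.8) and 2.24 (interval 2.03 to 2.48), the highest of the 25 by the weaker library. Col1a1 passed the size rule in all 16 alternative settings. With a lower fold or a looser filter, every gene past the rule passes by construction. Col3a1, the chain of type III collagen (chromosome 1, 45311538 to 45349706), was at 455 and 240 CPM in IgG and at 265 and 121 CPM in aPD-1, ratios of 1.89 (interval 1.78 to 2.02) and 2.19 (interval 2.05 to 2.34). For both collagens the aPD-1 Snai1-high cells lay above the IgG Snai1-0 cells and below the IgG Snai1-high cells, so the level differed by class and by library. Pdgfrb, a platelet-derived growth factor receptor of mesenchymal cells, was at 66.5 and 29.8 CPM in IgG and 46.3 and 24.3 CPM in aPD-1, 2.23-fold (interval 1.87 to 2.67) and 1.90-fold (interval 1.62 to 2.23). Pdgfra, the paired receptor and a member of the mesenchymal list, was 1.60-fold higher in each library, at 44.7 against 28.0 CPM and 34.8 against 21.8 CPM. Both receptors, like Col1a1 and Col3a1, are also on the fibroblast list.

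The other 9 of the 12 highest genes followed. Mmp2, the gelatinase that cuts basement membrane collagen, had ratios of 2.03 and 1.78, from 91 and 105 UMIs in Snai1-high cells. Emilin1, an elastic fibre glycoprotein, had 1.71 and 1.89, and Wisp1, a secreted WNT-induced matrix protein, 1.68 and 1.66. Gsn, the actin-severing gelsolin, was at 95.6 against 51.9 CPM in IgG and 35.1 against 18.9 CPM in aPD-1, ratios of 1.84 and 1.85. Id3, an inhibitor of DNA binding by helix-loop-helix factors and a target of BMP and TGF-beta signalling, was at 223 against 121 CPM and 102 against 53.7 CPM (1.83 and 1.91). Hic1, a transcriptional repressor that p53 induces, had ratios of 1.76 and 2.05, and Gadd45g, a stress sensor, 1.63 and 1.67. Nfatc2, a calcium-regulated transcription factor, had 1.76 and 1.68, and Slamf8, a surface receptor of the SLAM family, 1.84 and 1.70. Of these, Gsn is a fibroblast marker as well, and Gsn, Id3, Emilin1, Slamf8, Wisp1 and Nfatc2 no longer passed with clusters standardised.

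The genes lower in Snai1-high cells included Mt1, Mt2, Sox2 and Hmga1. Mt1 and Mt2, small proteins that bind zinc and copper, are neighbours on chromosome 8 and were lower together. Mt1 was at 1096 CPM in Snai1-high and 1864 CPM in Snai1-0 cells of IgG and at 990 and 1761 CPM in aPD-1, ratios of 0.59 (interval 0.57 to 0.61) and 0.56 (interval 0.55 to 0.58). Mt2 was at 686 and 1156 CPM and at 502 and 880 CPM, ratios of 0.59 and 0.57. Neither passed with clusters standardised, and both are top genes of the hypoxia cluster described below. Sox2, a stem cell transcription factor, was at 17.2 against 36.6 CPM in IgG (ratio 0.47, interval 0.37 to 0.60) and 25.8 against 44.0 CPM in aPD-1 (0.59, interval 0.49 to 0.70). Hmga1, an architectural chromatin protein of embryonic and tumour cells, was at 36.9 against 77.4 CPM and 70.0 against 117 CPM (0.48 and 0.60). With clusters standardised Hmga1 no longer passed either. Hmga1 has near-identical copies in the mouse genome, so its count is uncertain.

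Prkg2, a cGMP-dependent protein kinase, had the lowest ratio by the weaker library among genes with a name of their own, 0.54 (interval 0.41 to 0.70) and 0.49 (interval 0.41 to 0.59), and passed in 15 of 16 settings. Also lower were Cox6a2, a cytochrome c oxidase subunit of muscle (0.58 and 0.49), Eps8, an actin regulator downstream of the EGF receptor (0.57 and 0.61), and Hbegf, a ligand of that receptor (0.65 and 0.65). Dtl, which directs licensing factors to degradation in S phase, had 0.62 and 0.64, and Inip, a partner of single-stranded DNA binding proteins, 0.61 and 0.64. Pim3, a survival kinase, had 0.66 and 0.63. Klra4, at 0.65 and 0.59, belongs to the Ly49 receptors, whose near-identical genes make its count uncertain. Cox6a2, Dtl, Inip and Klra4 rested on 50 to 83 UMIs each in the Snai1-high cells of a library, and Inip, Hbegf and Pim3 passed in 10 of 16 settings. Eps8, Hbegf and Inip no longer passed with clusters standardised.

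**Figure D2:**
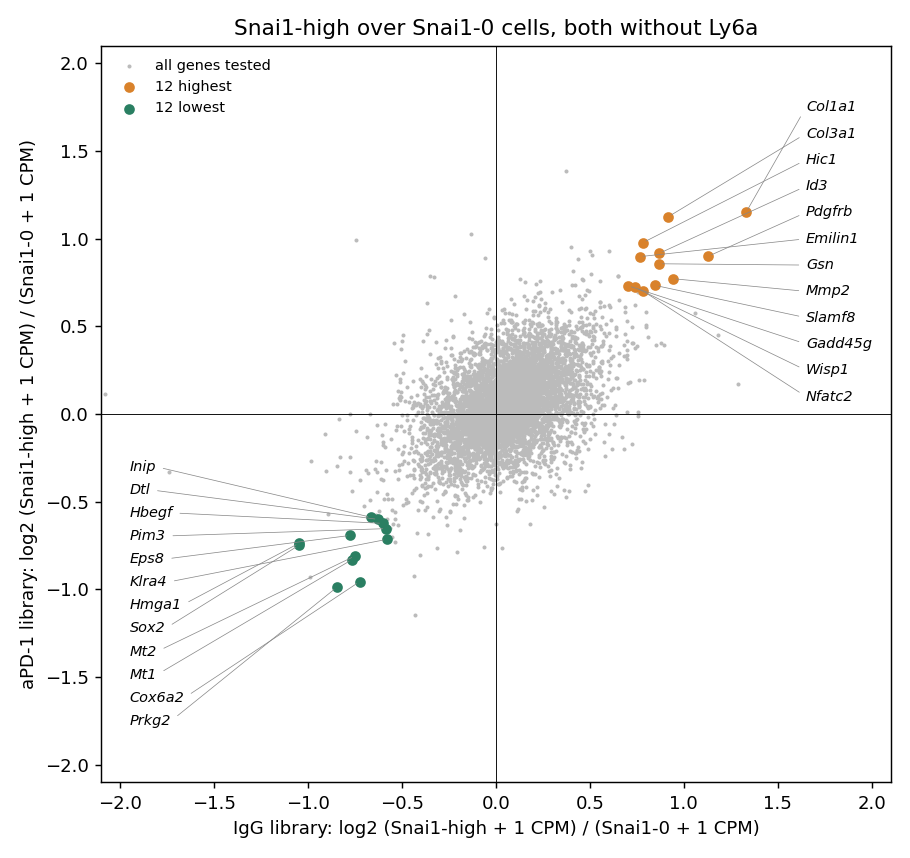
Each point is 1 of 6701 genes, with the log2 ratio of Snai1-high over Snai1-0 cells, both with 0 Ly6a UMIs, in the IgG library (x axis) and the aPD-1 library (y axis), 1 CPM added to each sum. The 12 highest genes (orange) and the 12 lowest (green) by the weaker library stand at the 2 ends, with Col1a1, Col3a1 and Pdgfrb at the upper right and Prkg2, Sox2 and Hmga1 at the lower left.

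Levels were also followed along the number of Snai1 molecules in cells without Ly6a. Pdgfrb was at 29.8, 39.8, 52.5, 59.5 and 84.0 CPM in IgG cells with 0, 1, 2, 3 and 4 or more Snai1 UMIs, and at 24.3, 34.2, 38.4, 52.3 and 58.0 CPM in aPD-1. The level of Pdgfrb increased at every step in both libraries, which held for 1 of the 12 highest genes. In IgG alone 2 of the 12 increased at every step and in aPD-1 alone 4, and 0 of the 12 lowest decreased at every step in both. Gsn, for example, was at 51.9, 79.8, 95.2, 64.5 and 110 CPM in IgG. Col1a1 went from 91.5 CPM at 0 UMIs over 132 at 1 and 193 at 2 to 291 CPM at 4 or more in IgG, and over 89.9 and 111 from 55.9 to 184 CPM in aPD-1, with no increase between 2 and 3. Hmga1 went down, at 77.4, 57.1, 42.3, 36.3 and 31.7 CPM in IgG and 117, 85.5, 79.1, 55.1 and 64.6 CPM in aPD-1. Cells just outside the threshold, with 1 UMI, lay between the Snai1-0 cells and those with 2 UMIs in both libraries for 9 of the 12 highest and 8 of the 12 lowest genes, all of which were chosen by the difference between 0 and at least 2 UMIs. The median depth was 17709, 19031, 17788.5, 18700 and 21389 UMIs along these classes in IgG and 16669, 17341, 16005, 16946.5 and 18583 in aPD-1, so the class of 4 or more was the deepest.

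**Figure D3:**
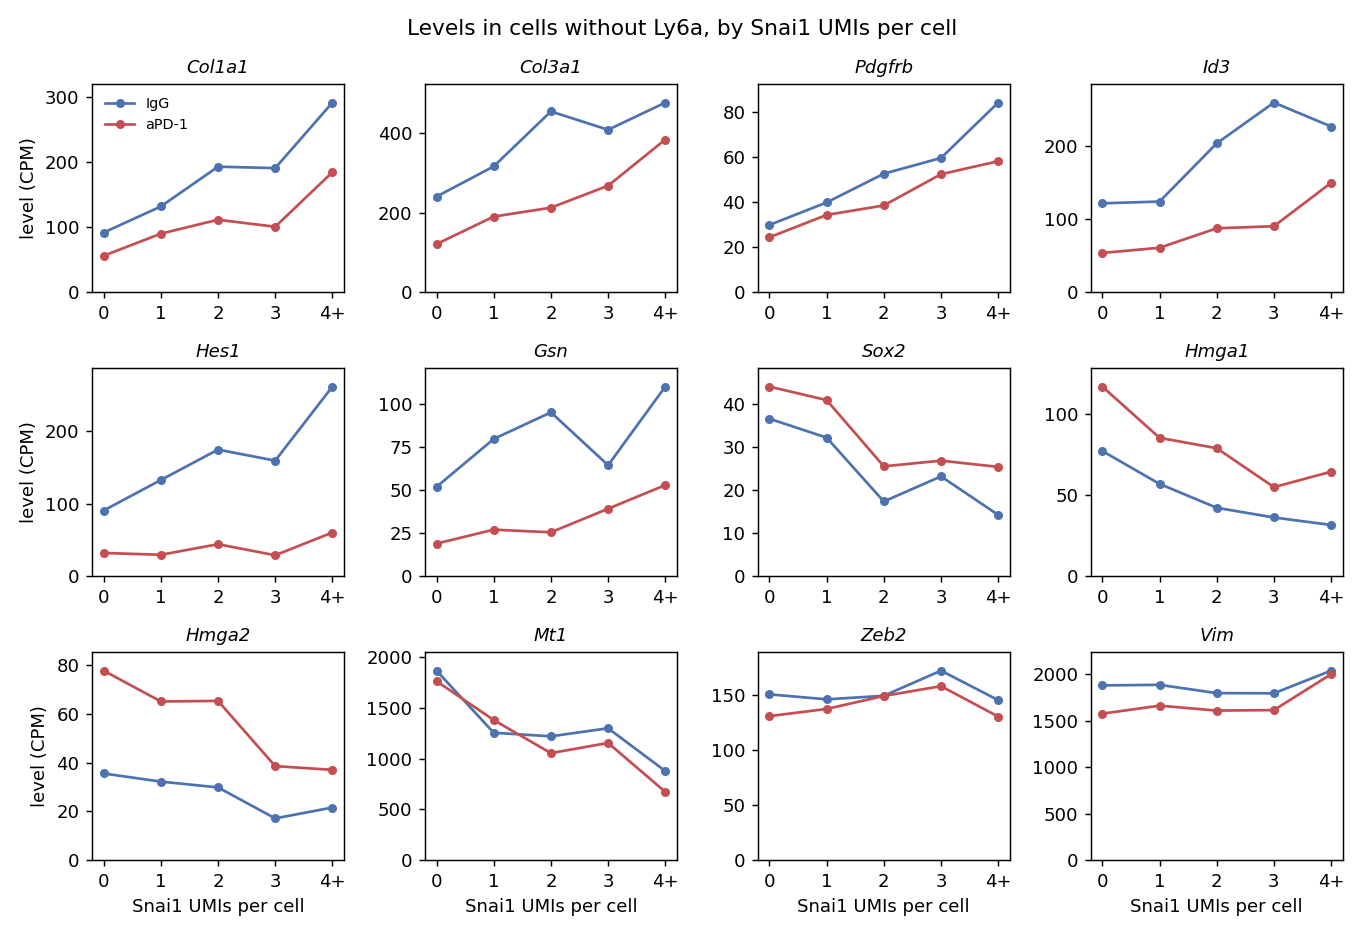
Level (y axis, CPM of summed UMIs) of 12 genes in cells with 0 Ly6a UMIs, by Snai1 UMIs per cell (x axis; 4+ is 4 or more), in the IgG (blue) and aPD-1 (red) libraries; 1 point is 1 sum and carries no replicate error. Pdgfrb goes from 29.8 to 84.0 CPM in IgG and Mt1 from 1864 to 877 CPM, while Zeb2 and Vim stay within a narrow band.

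The EMT transcription factors did not pass the rule. Of 10 listed, 7 passed the filter and 0 passed the size rule even by a looser fold, at least 25% higher or at least 20% lower, where 3.21% of all genes were higher and 1.21% lower, and the list median was 0.01 and 0.05 on the log2 scale beside 0.06 and 0.06 for all genes. Zeb2 was at 152 against 151 CPM in IgG and 147 against 131 CPM in aPD-1. Zeb1 had ratios of 1.03 (interval 0.88 to 1.20) and 1.14 (interval 0.99 to 1.31), Twist1 1.03 and 1.04, and Twist2 1.0 and 1.0. Snai2, the relative of Snai1 that encodes Slug, had 6 UMIs in IgG and 3 UMIs in aPD-1 Snai1-high cells and was near its detection limit in every class. Sox4, a transcription factor of the same list, was at 488 against 557 CPM in IgG and at 395 against 402 CPM in aPD-1.

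Mesenchymal and matrix genes differed more. Over all genes, 3.21% were higher and 1.21% lower by the looser fold, and 45.8% lay above a ratio of 1 in both libraries. Of 20 tested matrix genes 10 were higher by the looser fold in both libraries and 0 were lower, 18 lay above a ratio of 1 in both, and the median log2 ratio was 0.38 and 0.41. Besides Col1a1 and Col3a1 these were the basement membrane chains Col4a1 (1.54 and 1.32) and Col18a1 (1.28 and 1.34), the fibril chains Col5a1 (1.47 and 1.71) and Col5a3 (1.42 and 1.37), the microfibril chains Col6a1 (1.33 and 1.36), Col6a2 (1.39 and 1.42) and Col6a3 (1.34 and 1.39), and the collagen-binding Sparc (1.37 and 1.41). With clusters standardised the matrix medians were 0.28 and 0.24. Of 16 tested mesenchymal genes 5 were higher by that fold (Mmp2, Mmp14, Pdgfra, Pdgfrb and Sparc) and 0 lower. Vim, the intermediate filament used to mark mesenchymal cells, was at 1895 against 1882 CPM in IgG and 1702 against 1577 CPM in aPD-1. Fn1, fibronectin, had ratios of 1.24 (interval 1.16 to 1.34) and 1.20 (interval 1.14 to 1.26), and Cdh2, N-cadherin, was at 3.51 and 3.50 CPM in Snai1-high cells, too low to compare. Tpm1, an actin-binding tropomyosin, went the other way at 0.86 and 0.89.

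Among TGF-beta target genes, 6 of 12 tested were higher by the looser fold in both libraries and 1 was lower, with a median log2 ratio of 0.34 and 0.39, or 0.29 and 0.22 with clusters standardised. Among these 6 were Pmepa1, a feedback inhibitor (1.38 and 1.92), Junb, an AP-1 subunit (1.41 and 1.30), Id1 (1.66 and 1.33), Id3 and Col1a1. The lower one was Hmga2, the relative of Hmga1, at 24.2 against 35.5 CPM in IgG and 52.3 against 77.6 CPM in aPD-1 (0.68 and 0.67). Of the pathway's own ligands, receptors, Smad proteins and regulators, 15 were tested. Of these, 1 was higher (Pmepa1, already counted among the 6 targets) and 2 were lower, beside 3.21% and 1.21% of all genes. The ligand gene Tgfb1 had ratios of 1.23 and 1.15 and the inhibitory Smad7 was at 148 against 118 CPM and 138 against 123 CPM. Lower were Inhba, the activin subunit (0.64 and 0.76), and Smurf1, a ubiquitin ligase of Smad proteins (0.79 and 0.74). Of 14 tested regulators of Snail itself, 0 passed the looser fold in either direction, with Egr1 at 1.13 and 1.18 and Hdac1 at 1.18 and 1.32.

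Hes1, the repressor downstream of Notch, was at 207 against 90.5 CPM in IgG, 2.28-fold (interval 2.07 to 2.53), and at 44.1 against 32.1 CPM in aPD-1, 1.38-fold (interval 1.18 to 1.60). It was the only 1 of 7 tested Notch genes past the looser fold. The WNT list had Tcf7l1, a repressor of WNT targets, at 1.78 and 1.43, and 5 of 5 tested members above 1 in both libraries, where 45.8% of all genes were. Of 24 tested immediate early genes, Junb and Fos (1224 against 977 CPM and 719 against 558 CPM) were higher by the looser fold and Ier3 was lower (0.75 and 0.57). Over all genes 3.21% were higher and 1.21% lower by that fold. The NF-kB list of 23 tested had 3 higher, among them Nfkbie, an inhibitor of NF-kB (1.58 and 1.44), and 1 lower, Ier3. The apoptosis inhibitors Birc2 and Birc3 had ratios of 1.22 and 1.16 and of 1.08 and 1.43, and their intervals included 1 in aPD-1 for Birc2 (0.98 to 1.37) and in IgG for Birc3 (0.85 to 1.36).

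The cell cycle lists were split between G2/M and S phase. By the looser fold 3.21% of all genes were higher and 1.21% lower. Of 38 tested G2/M genes 5 were higher by the looser fold (Tpx2, Ccnb2, Cdc20, Hmmr and Psrc1) and 0 lower, with medians of 0.22 in IgG and 0.10 in aPD-1. With clusters standardised the medians were 0.08 and -0.05, so the direction turned in aPD-1. Ccnb2, a mitotic cyclin, was at 105 against 67.0 CPM in IgG and 63.1 against 46.1 CPM in aPD-1. Of 32 tested S phase genes 0 were higher and 1, Dtl, lower, with medians of -0.19 and -0.05. Phase calls on cells thinned to 10000 UMIs put 34.2% of IgG Snai1-high cells in G2/M (interval 28.6 to 40.1%) against 23.5% of Snai1-0 cells (interval 19.2 to 28.2%), but 33.7% against 35.3% in aPD-1. Without thinning these were 36.7% against 28.1% and 39.1% against 37.8%. For S phase the thinned shares were 6.91% against 12.8% in IgG and 13.1% against 16.1% in aPD-1. The G2/M difference was thus seen in IgG, and its difference from aPD-1 was not tested.

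Among stress and immune lists, p53 targets went both ways, with Phlda3 (1.49 and 1.32) and the death receptor Fas (1.37 and 1.47) higher and Cdkn1a, the cyclin kinase inhibitor p21 (0.76 and 0.72), Plk2 (0.77 and 0.68) and Gdf15 (0.67 and 0.68) lower, of 11 tested. Hypoxia genes had 1 higher, Ddit4 (1.37 and 1.41), and 2 lower, Ero1l (0.78 and 0.78) and Ndrg1 (0.71 and 0.70), of 17. The MHC class I list had 4 of 17 higher (H2-M3, Tap2, Psmb8 and Psmb10) and 0 lower, with medians of 0.28 and 0.25 that were 0.07 and 0.14 with clusters standardised. Tap2, a peptide transporter subunit, was at 79.0 against 61.7 CPM and 45.8 against 33.3 CPM. Type I interferon genes had 0 of 23 past the looser fold in the same direction in both libraries, with medians of 0.24 in IgG and -0.01 in aPD-1. Interferon-gamma response, glycolysis and heat shock genes had 0 in either direction. Of 23 cholesterol synthesis genes 1 was higher, Ebp (1.27 and 1.40), with medians of 0.01 and 0.39. These list counts stand beside 3.21% of all genes higher and 1.21% lower by the looser fold.

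Snai1-high cells were spread over the clusters of the kept cells, which were made without Snai1 and Ly6a and are named by their leading genes. The cluster led by Rac2 and Spib held 38.2% of IgG and 29.6% of aPD-1 Snai1-high cells against 30.9% and 17.1% of Snai1-0 cells. The cluster led by Cdc20 and Kifc1, genes of mitosis, held 20% and 9.25% against 12.8% and 4.57%, and the one led by Lbp and Gsn, which had 2 fibroblast markers among its top genes, 14.2% and 4.48% against 10.1% and 2.23%. Snai1-high cells were fewer in the cluster led by Car9, Mt2 and Ero1l, genes of hypoxia and metal binding, at 10.2% and 15.5% against 19.1% and 27.9%. They were also fewer in that led by histones and Top2a, at 16.0% and 40.3% against 24% and 45.4%. The cluster led by interferon genes held 4 and 3 of them, 1.5% and 0.90%, against 3.0% and 2.9% of Snai1-0 cells, and a small cluster of 13 cells led by Igfbp3 held none.

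Within the 5 clusters with at least 15 cells of each class in each library, 10 ratios could be formed per gene. Col3a1 and Pdgfrb were above 1 in 10 of 10, from 1.23 to 2.52 and from 1.15 to 4.95. Col1a1, Gsn, Hic1, Mmp2, Emilin1 and Gadd45g were above 1 in 9 of 10. Col1a1 was at 0.76 in the Lbp and Gsn cluster of aPD-1, from 15 Snai1-high and 20 Snai1-0 cells. Cox6a2 and Inip were below 1 in 10 of 10 and Sox2, Hmga1, Eps8 and Hbegf in 9 of 10. For Inip this includes a ratio of 0 in the Lbp and Gsn cluster of aPD-1, whose 15 Snai1-high cells held no Inip UMI. Mt1 was below 1 in 8 of 10 and Mt2 in 7 of 10. Slamf8 was at 0.33 in IgG and 0.42 in aPD-1 in the Car9 cluster. Dtl was above 1 in 4 of 10, and Prkg2 was at 4.49 in the Lbp and Gsn cluster of aPD-1. All these genes were chosen by their difference in the same cells, so their direction within clusters follows in part from that choice. The same count was not made over all genes.

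Snai1-high cells were also compared with cells that had both transcripts. These 264 IgG and 230 aPD-1 cells had at least 2 Snai1 and at least 1 Ly6a UMI. Their median depths were 21511 and 17812.5 UMIs, above the 19861 and 16987 of Snai1-high cells. The 2 groups were set apart by their Ly6a counts, and 0 UMIs can be a missed transcript, more so in shallower cells. Because interferon induces Ly6a, differences in interferon genes may follow in part from this choice. Of 6803 genes tested, 1 was higher (0.0147%) and 39 were lower (0.573%) in Snai1-high cells without Ly6a in both libraries. The 1 higher gene was Ppp1r16a, a regulatory subunit of protein phosphatase, at 1.61 and 1.59. Among the lower genes were 7 of 25 tested type I interferon genes (Ifit1, Ifit3, Ifit3b, Oas2, Oasl1, Irf7 and Ifi27l2a) and 3 of 18 interferon-gamma response genes (Gbp4, Iigp1 and Cxcl9). The list medians were -0.41 and -0.78 for type I and -0.33 and -0.82 for interferon-gamma, beside 0.04 and 0.00 for all genes. Ifit3, an interferon-induced antiviral protein, was at 43.4 against 92.6 CPM in IgG and 34.6 against 108 CPM in aPD-1, and the chemokine Cxcl9 at 89.2 against 146 CPM and 28.8 against 119 CPM. Reads of Ifit3 and Ifit3b, near-identical copies, may be split between them.

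Also among the 39, and picked after their values were seen, were H2-Aa, a class II antigen presentation gene, at 23.1 against 46.4 CPM and 17.2 against 43.2 CPM and Cd74, the invariant chain, at 42.5 against 88.7 CPM and 32.5 against 70.4 CPM. Ly6c1, a neighbour of Ly6a in the Ly6 family, was at 4.62 against 48.4 CPM in IgG and 5.33 against 38.0 CPM in aPD-1, and reads of these similar genes may be shared. The matrix, mesenchymal, TGF-beta target and EMT factor lists had 0 members past the size rule in this comparison. Of all genes only 0.0147% were higher and 0.573% lower, so a count of 0 does not set these lists apart. Their medians ran from -0.12 to 0.01 in IgG and from -0.24 to -0.15 in aPD-1, each below the 0.04 and -0.002 of all genes. Type I interferon genes were chosen as a list with earlier results known.

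The leading genes were also set over the same Snai1-0 cells in both kinds of Snai1 cell. Because these ratios share their comparison cells, they are given side by side only. Col1a1 was at 2.53 without and 2.11 with Ly6a in IgG, and at 2.24 and 2.99 in aPD-1. Pdgfrb was at 2.23 and 2.17 and at 1.90 and 1.90, and Hmga1 at 0.48 and 0.47 and at 0.60 and 0.56. Gsn was at 1.84 and 1.97 in IgG but at 1.85 without and 2.98 with Ly6a in aPD-1. Hbegf was at 0.66 and 0.96 and at 0.65 and 0.84, and Prkg2 at 0.54 and 0.35 and at 0.49 and 0.57. Taken directly between the 2 kinds of cell, the counting interval of the ratio excluded 1 for 5 of the 12 highest and 3 of the 12 lowest genes in each library. Of the highest, Col1a1 (1.20), Id3 (1.14) and Emilin1 (1.15) were higher and Mmp2 (0.71) and Gadd45g (0.92) lower without Ly6a in IgG. In aPD-1 Col1a1 (0.75), Col3a1 (0.74), Gsn (0.62), Slamf8 (0.73) and Wisp1 (0.78) were all lower, so Col1a1 turned. Of the lowest, Mt2 and Hbegf were lower without Ly6a in both libraries, Mt1 in aPD-1, and Prkg2 was higher in IgG. No such count was made over all genes. In cells with at least 2 Ly6a and 0 Snai1 UMIs, Id3 was at 1.18 and 0.97, Gadd45g at 1.03 and 0.95 and Emilin1 at 0.97 and 1.53, whereas Gsn was at 2.49 and 1.76 and Mmp2 at 3.25 and 2.03. Among the 12 highest genes, Id3, Hic1, Pdgfrb, Gadd45g, Emilin1 and Wisp1 had the lowest of the 3 ratios in the class with Ly6a and no Snai1 in both libraries. The 12 were chosen by their ratio in Snai1-high cells, so a lower ratio in another class follows in part from that choice.

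**Figure D4:**
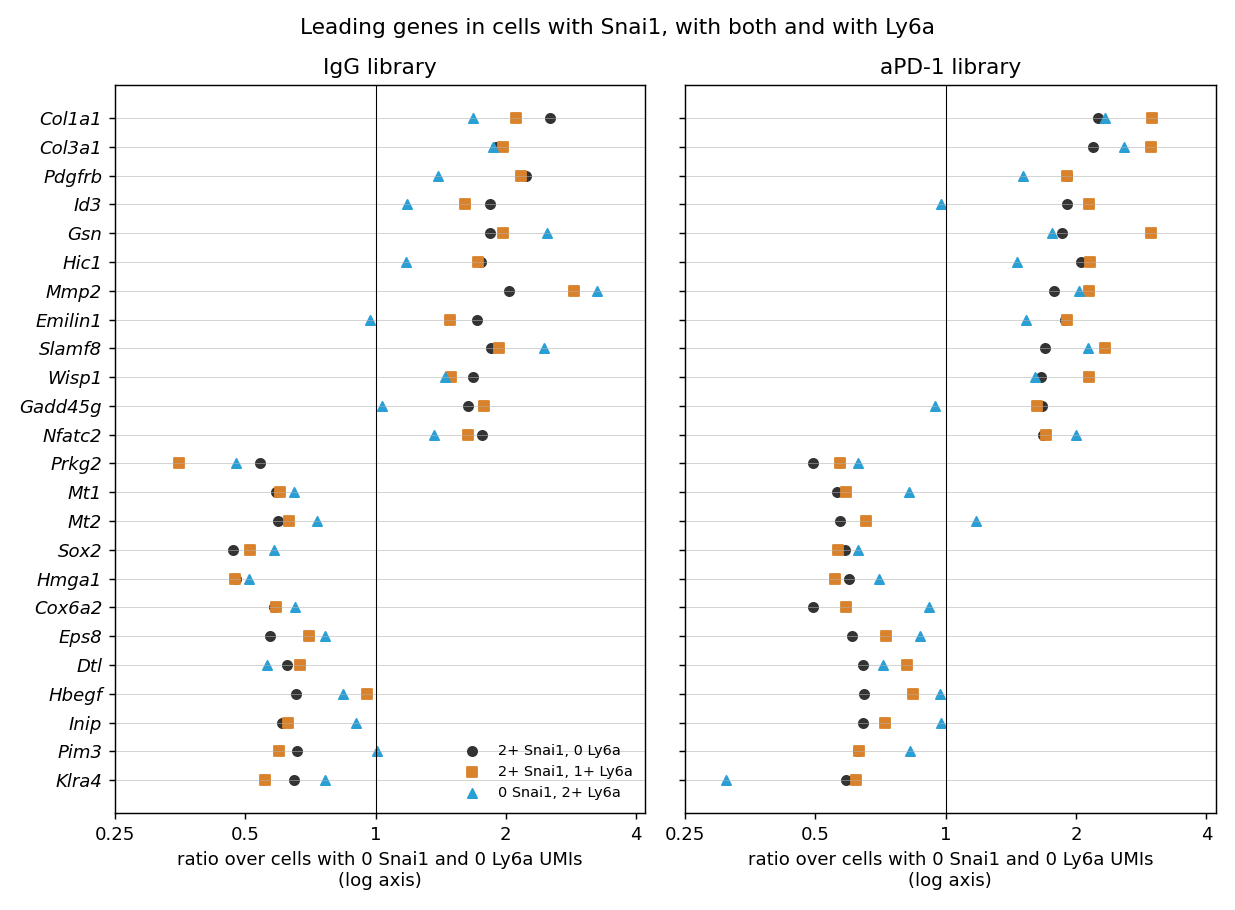
Ratio of summed levels over cells with 0 Snai1 and 0 Ly6a UMIs (x axis, log scale) for the 12 highest and 12 lowest genes, in Snai1-high cells without Ly6a (black circles), cells with both (orange squares) and cells with Ly6a and no Snai1 (blue triangles), in the IgG (left) and aPD-1 (right) libraries. Id3 and Gadd45g lie near 1 in the cells with Ly6a and no Snai1, at 1.18 and 1.03 in IgG, and at 1.83 and 1.63 in the Snai1-high cells.

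The Snai1-high cells of the aPD-1 library were then set against those of the IgG library. Of 7108 genes tested, 115 were higher (1.62%) and 491 were lower (6.91%) with aPD-1. Over all genes tested the log2 ratio had a median of -0.12, and with it set to 0 the counts were 229 and 244, so the excess of lower genes went with that shift. In Snai1-0 cells the same contrast gave 104 higher (1.5%) and 523 lower (7.52%). Of the 115 higher genes 105 lay on the same side of 1 in Snai1-0 cells and 47 passed there too, and of the 491 lower genes 477 and 228. Of the 15 genes named here, Cxcl2 alone lay on opposite sides of 1 in the 2 classes, and the difference between the classes was not tested.

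Hes1 (chromosome 16, 30064384 to 30067796) was the lowest, at 44.1 CPM with aPD-1 and 207 CPM with IgG, a ratio of 0.21 (interval 0.19 to 0.24), against 0.35 (interval 0.31 to 0.40) in Snai1-0 cells. Tnfaip6, a hyaluronan-binding protein induced by inflammation, was at 0.23 (0.33 in Snai1-0 cells), Id1 at 0.32 (0.40), Cxcl9 at 0.32 (0.41), Lbp, the lipopolysaccharide-binding protein, at 0.34 (0.19), Gsn at 0.37 (0.37), and Spib, a transcription factor of the ETS family, at 0.37 (0.26). The neutrophil chemokine Cxcl2 was at 0.32 in Snai1-high and 1.31 in Snai1-0 cells, but a single IgG cell held 53 of its 99 UMIs. Higher with aPD-1 were Mical2, which oxidises actin, at 2.27, and the linker histone Hist1h1b, at 2.26 (3.64 in Snai1-0 cells). Rbp2, a retinol-binding protein, was at 2.22 in Snai1-high cells against 1.44 in Snai1-0 cells. Hmga2 was at 52.3 against 24.2 CPM, 2.16-fold (interval 1.76 to 2.67), and 2.18-fold in Snai1-0 cells. Tcf19, a cell cycle factor, was at 2.16, Fam19a5, a secreted neurokine, at 2.11 (1.17 in Snai1-0 cells), and Fam195a at 2.09.

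The leading genes of the class were also compared between libraries. Among Snai1-high cells, Col1a1 was 0.54 times as high with aPD-1 (interval 0.49 to 0.59), Col3a1 0.58 (interval 0.55 to 0.62), Id3 0.46 and Pdgfrb 0.70. The matching ratios in Snai1-0 cells were 0.61 for Col1a1, 0.50 for Col3a1, 0.44 for Id3 and 0.82 for Pdgfrb. Mt1 was at 0.90 and Fn1 at 1.28 (interval 1.20 to 1.37). By list, the median log2 ratio was -0.40 for MHC class I genes, -0.32 for immediate early genes, -0.27 for matrix genes, -0.12 for TGF-beta targets and 0.24 for S phase genes, beside -0.12 for all genes. Of the 32 S phase genes counted above 6 were higher and 0 lower with aPD-1. Among all 6701 genes of that same count, 98 were higher and 379 lower. The cluster led by histones held 16.0% of IgG and 40.3% of aPD-1 Snai1-high cells, and its part in the S phase value was not tested. The summed fibroblast markers, at 1729 and 1114 CPM, moved with the matrix genes. The 2 lists share members, among them Col1a1, Col3a1 and Col6a3, so this follows in part from their overlap. The part of fibroblasts was likewise not tested.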

How the data were processed

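The deposited gene by barcode matrices hold UMI counts, made by the authors with Cell Ranger (version 3.0.2 per the file headers) on mm10, with Seurat 2.1.0 also named, per the submitters' processing notes. The counts are not normalised, and the aPD-1 matrix is unfiltered (737280 barcodes, IgG 4351). Of the kept window's barcodes, 23 IgG and 10 aPD-1 were left out for mitochondrial UMIs. UMIs were summed per class and library (Python 3.11.15, NumPy 2.4.6, SciPy 1.17.1) and scaled to CPM. Ratios carry exact conditional binomial intervals and shares Clopper-Pearson intervals. Log2 ratios add 1 CPM. Clusters came from scanpy 1.11.5 and leidenalg 0.10.2 (2000 variable genes, 30 components, 15 neighbours, resolution 0.5). The summing and calling were tested on simulated data.

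The members, the 28 pathway lists and 8 cell type lists (657 symbols, 5 unmatched) and the rules were chosen with earlier results of these data known. Named are the 12 highest and 12 lowest genes past the size rule by the weaker library, the 8 highest and 8 lowest for aPD-1 over IgG, up to 2 extreme genes per list and direction, and a fixed set around Snai1, without ribosomal protein, mitochondrial and haemoglobin genes or Gm and Rik models. Of the genes these rules name, 2 are not reported here. Other list members were named after their values were seen. Coordinates are those of GENCODE M21 (GRCm38) and promoters those of RefSeq (GRCm38.p6). Alternatives were other weightings, clusters, phases, depths, filters, folds and thresholds.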

Additional observations from a re-analysis of the deposited data

Results flagged for a closer look

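Bbs2, a subunit of the complex that carries proteins to cilia, was on opposite sides of the size rule in the 2 libraries. Its ratio of Snai1-high over Snai1-0 cells was 0.571 in IgG (8.68 against 15.2 CPM, interval 0.395 to 0.814) and 2.11 in aPD-1 (17.5 against 8.30 CPM, interval 1.61 to 2.74). The difference between the libraries was not tested. A single cell held 39 of the 105 Bbs2 UMIs of the aPD-1 Snai1-high cells, another 38 of the 131 UMIs of the aPD-1 Snai1-0 cells, and another 20 of the 101 UMIs of the IgG Snai1-0 cells.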

How the results depend on the processing

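The 43 genes past the size rule in Snai1-high against Snai1-0 cells each kept their direction in both libraries under the 16 alternatives. Other filters and folds leave the ratios as they are, so there the direction was kept by construction. Higher genes no longer outnumbered lower ones with clusters standardised (6 and 8), with the median set to 0 (17 and 27) and without ribosomal protein and mitochondrial genes (30 and 37). Among the list medians reported, several near 0 changed sign: EMT factors in IgG to -0.03 with clusters and -0.02 with depth standardised, G2/M genes in aPD-1 to -0.05 and cholesterol genes in IgG to -0.15 with clusters standardised, and S phase genes in aPD-1 to 0.02 with phase standardised. The 25 higher and 18 lower genes of Snai1-high over Snai1-0 cells became 6 and 8 standardised over clusters, 70 and 41 with no filter beyond 1 UMI in each sum, 1 and 0 at 2-fold, 215 and 81 by the looser fold of 25% higher or 20% lower, and 60 and 44 with at least 3 Snai1 UMIs. Also outside 1.5 times the reported count were 49 higher genes with a filter of 5 CPM, 43 higher in cells of 20000 to 30000 UMIs, 10 lower with a filter of 20 CPM and 37 lower without ribosomal protein and mitochondrial genes. The 115 higher and 491 lower genes of aPD-1 over IgG in Snai1-high cells became 229 and 244 with the median set to 0, 60 and 263 with a filter of 20 CPM, 239 and 895 with no filter, 10 and 56 at 2-fold, 378 and 1491 by the looser fold and 253 and 895 in cells of 20000 to 30000 UMIs. The higher count was 263 without ribosomal protein and mitochondrial genes, and the lower count 280 standardised over clusters. The filters change the number of genes tested and the folds the size asked for, by construction. For the other settings the cause was not tested. The share of Snai1-high cells was 13.5% and 8.13% in thinned cells. No paired analysis was possible because each treatment has 1 library. Depth limits what can be read of genes under 10 CPM, and the count of Snai1 molecules per cell.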
